A study of Arabidopsis thaliana with 12 samples.

Results

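The comparison described here sets germinating Arabidopsis thaliana seeds of the mutant line ago4-3 against seeds of the wild type Col-0, both on medium with 100 mM NaCl. Its members were taken by their labels and not by any measured value. They are ago4-3 NaCl replicates 1 and 2 and Col-0 NaCl replicates 1 and 2, that is 4 of the 12 libraries of polyadenylated RNA in the series. The other libraries are pairs of ago4-3, ago4-2 and Col-0 seeds on control medium (MS 1X) and of ago4-2 seeds on NaCl, and all seeds germinated at 21 °C under long days. The labels give the lines by name only, so neither the kind of lesion in ago4-3 nor the number of clones, crosses or seed lots behind it is given here. The tissue is the whole germinating seed, with embryo, endosperm and seed coat together, and less RNA per cell cannot be told apart from fewer cells of a type.

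AGO4 encodes an ARGONAUTE protein that is loaded with short interfering RNAs. In RNA-directed DNA methylation, these complexes pair with transcripts of RNA polymerase V and recruit a methyltransferase, so that transposons, repeats and the genes next to them are methylated and kept silent. The mark can also act the other way. At ROS1, which encodes a DNA glycosylase that removes methylated cytosine, methylation near the gene is known to keep it expressed. The sequences printed with some genes below are the 250 bases before the annotated start, read from the TAIR10.1 genome of RefSeq, with CG dinucleotides, the main methylated context in plants, in capitals. Methylation itself was not measured.

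AGO4 (AT2G27040; TAIR10.1 chromosome 2, 11536502 to 11542391, minus strand) had 0.729 and 0.549 CPM (counts scaled to library size, with TMM factors) in the ago4-3 NaCl libraries, against 46.9 and 38.9 CPM in the Col-0 NaCl libraries. The mutant was far below the wild type in both libraries, and the log2 fold change was −6.09 ± 0.20 (SE, adjusted p = 9.14e-11 in edgeR's quasi-likelihood test). Of 33 measured genes for RNA-directed DNA methylation and methyltransferases, AGO4 was the 1 that was called, and the median log2 fold change of the list was −0.02, against −0.01 over all genes. The argonautes AGO6 and AGO9 are in that list. None of the 4 measured argonautes outside it was called by edgeR or by DESeq2, and 1 was higher at an unadjusted p under 0.05.

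In all, 211 of 17751 genes differed between ago4-3 and Col-0 on NaCl at an adjusted p under 0.05, which is 1.19% of the genes tested. There were 96 genes higher in ago4-3 (0.541%) and 115 lower (0.648%). At an unadjusted p under 0.05 there were 2064 of 17751 genes in either direction. Of at least 4 on the log2 scale were 24 rises and 8 falls. These counts are partly set by the filter of the deposited tables. Genes silent in Col-0 were fitted only where a line other than Col-0 expressed them on control medium. Near-identical copies among the rises, described below, also count more than once. In every called gene both libraries of one line lay above both of the other, an order also found in 20.33% of all genes for ago4-3 above Col-0 and in 21.19% for ago4-3 below Col-0. The 4 libraries held 20549167 and 29581350 counts for ago4-3 and 31001632 and 34167928 counts for Col-0. Each library weighed on the count of calls, which was 87 without ago4-3 NaCl replicate 1, 105 without ago4-3 NaCl replicate 2, 104 without Col-0 NaCl replicate 1 and 149 without Col-0 NaCl replicate 2. With each library left out in turn, 64 genes stayed called, 43 higher and 21 lower. The p-values measure the spread between libraries of a group, estimated over all 12 libraries in 6 groups and not over these 4 alone. The libraries are described as biological replicates with no word on separate cultures.

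**Figure D1:**
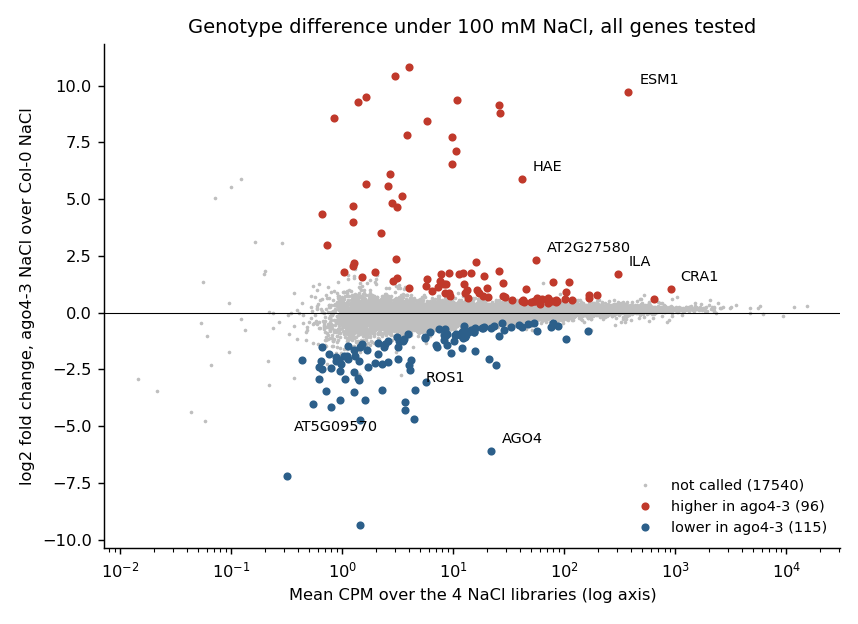
Mean level of each gene over the 4 NaCl libraries (CPM, log axis) against the log2 fold change of ago4-3 NaCl over Col-0 NaCl for 17751 genes. Grey points are genes that were not called, and the coloured points are the 96 genes higher and the 115 genes lower in ago4-3. ESM1 stands apart at 9.72 and AGO4 at −6.09.

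The clearest rise was in ESM1 (AT3G14210; chromosome 3, 4729399 to 4731847, plus strand), which encodes a myrosinase-associated protein that turns the breakdown of glucosinolates away from nitriles. It had 773 and 741 CPM in the ago4-3 NaCl libraries, against 0.751 and 1.04 CPM in the Col-0 NaCl libraries. The transcript was close to absent in both wild-type libraries and abundant in both mutant libraries (9.72 ± 0.22, adjusted p = 7.89e-13). It was the only called member of the 15 measured genes for glucosinolate hydrolysis and the genes listed with them, whose median was −0.03. The same rise was present without salt, with 383 and 441 CPM in ago4-3 control, against 0.499 and 0.497 CPM in Col-0 control (9.68). Seeds of the other mutant line on NaCl, compared with the same Col-0 NaCl libraries in a contrast that called 29.3% of genes, held 96.1 and 104 CPM. The window before the gene holds 4 CG, and 67.3% of the 17559 windows of measured genes hold at least as many.
ESM1, chr3:4729149-4729398, plus strand: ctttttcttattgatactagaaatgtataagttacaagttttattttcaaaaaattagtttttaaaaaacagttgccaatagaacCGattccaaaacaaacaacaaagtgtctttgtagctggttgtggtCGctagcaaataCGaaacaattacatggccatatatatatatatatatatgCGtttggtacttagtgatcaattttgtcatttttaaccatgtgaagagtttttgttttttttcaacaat

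HAE (AT4G28490; chromosome 4, 14077676 to 14081457, plus strand), chosen after its values were seen, encodes the receptor-like kinase HAESA, known from the shedding of floral organs. It had 84.3 and 80.0 CPM in ago4-3 NaCl, against 1.39 and 1.38 CPM in Col-0 NaCl. The replicates of each line were almost level with each other, and the difference was 5.89 ± 0.25 (adjusted p = 1.10e-09). In control it was 5.22, while ago4-2 on NaCl differed from the same Col-0 libraries by 0.76 (adjusted p = 0.0615). The window holds 2 CG, a number reached by 89.0% of windows.
HAE, chr4:14077426-14077675, plus strand: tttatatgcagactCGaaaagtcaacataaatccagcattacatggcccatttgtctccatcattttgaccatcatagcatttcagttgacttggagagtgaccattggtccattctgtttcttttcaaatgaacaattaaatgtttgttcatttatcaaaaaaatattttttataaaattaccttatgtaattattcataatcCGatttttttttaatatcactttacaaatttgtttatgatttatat

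A pair of neighbouring genes with the symbol AT14A, AT3G28290 and AT3G28300 on chromosome 3, code for transmembrane proteins with a DUF677 domain. AT3G28300 had 45.3 and 57.4 CPM in ago4-3 NaCl, against 0.0577 and 0.115 CPM in Col-0 NaCl, a difference of 605-fold in scaled counts. AT3G28290 had 47.0 and 59.1 CPM, against 0.173 and 0.0577 CPM, or 469-fold. Their annotated spans of 1961 bases are 100% identical, and so are the 250 bases before them, so the counts of one copy cannot be told apart from those of the other. On control medium ago4-3 held less of them, with 5.63 and 6.72 CPM of AT3G28300, against no count in either Col-0 control library. The pair lies in a stretch of chromosome 3 (10520443 to 10599042) that was drawn to begin and end at called genes. Its share of calls is therefore not comparable with the 1.19% of all genes called. Of 7 measured genes in it, 6 were called, 4 of them higher, among them the DUF677 gene AT3G28310 (4.71), and 2 lower, among them PMZ. The 2 AT14A copies are among the 4 rises and do not count as separate calls. The window is shown once for both copies.
AT3G28300, chr3:10565424-10565673, plus strand: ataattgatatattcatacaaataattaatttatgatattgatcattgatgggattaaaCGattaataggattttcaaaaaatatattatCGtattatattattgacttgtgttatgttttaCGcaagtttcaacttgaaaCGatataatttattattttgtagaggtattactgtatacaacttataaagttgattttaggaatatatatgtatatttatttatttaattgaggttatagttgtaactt

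Many of the other large rises were in genes close to silent in Col-0. Under 0.2 CPM on average in one line and at least 1 CPM in the other were 21 genes that rose and 9 that fell. A gene silent in Col-0 entered the fit of all 12 libraries only where another group on control medium had passed the filter of the deposited tables, so no count of shared calls is given for these genes. AT1G59920, annotated as a MADS-box family gene, had 162 and 235 counts in ago4-3 NaCl and 0 and 0 in Col-0 NaCl, and was at least 92.2-fold higher when 3 counts are allowed in each Col-0 library. Its neighbour AT1G59930 had 261 and 307 counts, against 2 and 0, and the ratio was 396-fold (95% counting interval 109 to 3277). These neighbours are 98.8% identical over the whole of AT1G59920 and may share reads. A further group of 4 near-identical copies on chromosome 1, AT1G24851, AT1G25025, AT1G25112 and AT1G25180, was also higher, with 105 and 144 counts of AT1G24851, against 4 and 3, or 49.6-fold.

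AT3G32030, which encodes a terpenoid cyclase, had 97 and 208 counts in ago4-3 NaCl and 0 and 0 in Col-0 NaCl, at least 70.9-fold higher. AT2G21100, a dirigent-like gene of the kind that takes part in lignan and lignin coupling, had 22.6 and 16.2 CPM, against 0.0577 and 0.115 CPM, or 218-fold. In ago4-2 on NaCl it was higher still, at 49.6 and 55.5 CPM, set against the same Col-0 libraries. AT2G19000, of unknown function, was at least 32.1-fold higher. Each of these genes was above Col-0 in both mutant libraries, as was every gene called higher.

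Several of the largest changes were in annotated pseudogenes. AT2G11410 had 493 and 573 counts in ago4-3 NaCl, against 0 and 2 in Col-0 NaCl, a ratio of 743 (95% counting interval 205 to 6144). AT4G08093 was 262-fold higher (72.1 to 2172), AT5G35935 was 143-fold higher, and AT2G05660 and AT3G30833 were at least 35.3-fold and 19.5-fold higher. In the other direction, AT4G08115 had 0 and 0 counts in ago4-3 NaCl and 135 and 65 in Col-0 NaCl, at least 23.9-fold lower, and SADHU3-2, a copy of the Sadhu retroposons, was 18.6-fold lower, with 4 counts in all in the mutant. Of 210 measured pseudogenes, 11 were higher and 4 lower (7.14%), compared with 81 and 111 of 17025 protein-coding genes (1.13%). Of the coding genes within 2 kb of an annotated pseudogene, 1.96% were called, and 1.07% of those farther away. These shares are partly set by the filter described above. Genes silent in Col-0 were measured only where a line other than Col-0 expressed them on control medium. Counting intervals and floors cover counting error only, and the mates of read pairs probably entered the counts one by one, which makes them too narrow.

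**Figure D2:**
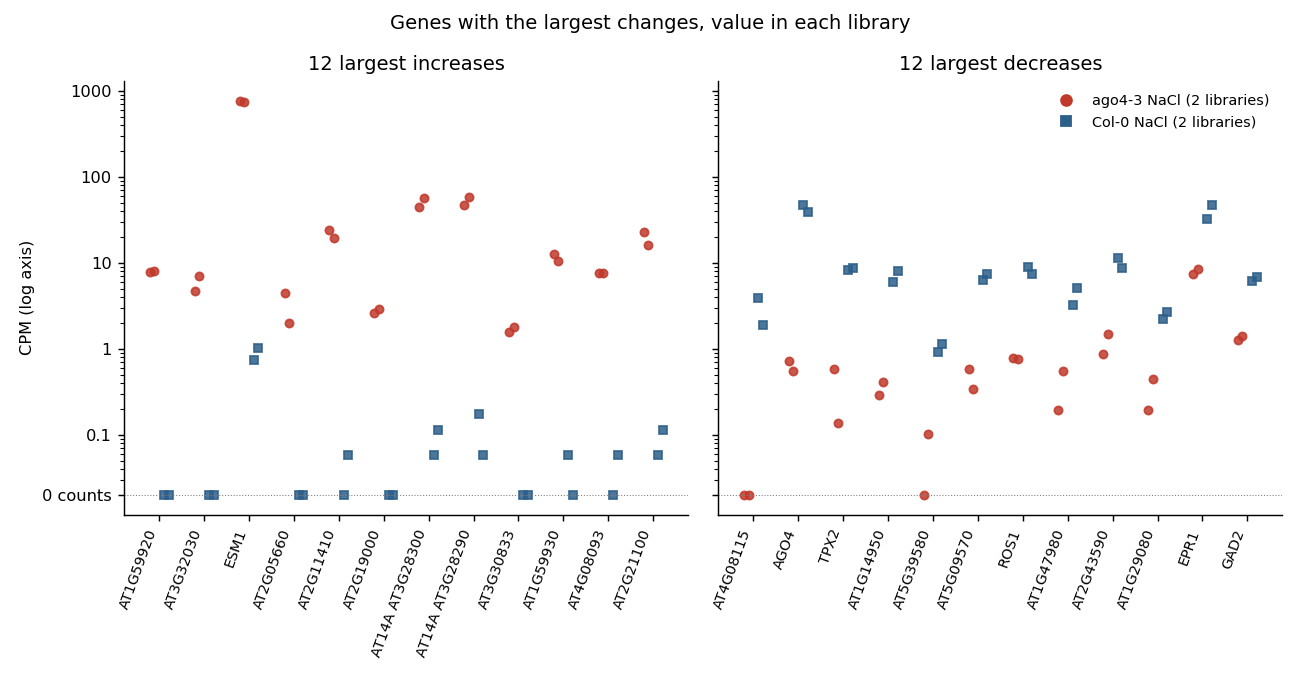
CPM in each of the 4 NaCl libraries (log axis, ago4-3 left of Col-0) for the 12 largest rises and the 12 largest falls among genes that stayed called with each library left out. Zero values are drawn on the dotted floor line. Separate groups were also required for this choice, so that the lines do not overlap was set in advance. ESM1 is at 773 and 741 CPM in ago4-3 and about 1 CPM in Col-0.

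SDC, a gene kept silent in leaves by methylation of the tandem repeats in its promoter, was below the 1 CPM threshold of the deposited table in some other comparisons, and so was read from the 4 libraries alone. That fit called 239 of 17826 genes (1.34%). SDC, chosen after its values were seen, had 60 and 74 counts in ago4-3 NaCl, against 10 and 7 in Col-0 NaCl. It was 10.2-fold higher (3.44 ± 0.46, adjusted p = 9.51e-05), with both mutant libraries above both wild-type libraries. SDC overlaps AT2G17695, and the sources used here do not say whether counting used the strand. In the same fit the purine permease PUP1 had 35 and 50 counts, against 2 and 2, and AT1G36675 had 28 and 36 counts, against 0 and 0, at least 13.9-fold higher. The window before SDC, on chromosome 2, holds 6 CG, a number reached by 43.8% of windows.
SDC, chr2:7681912-7682161, plus strand: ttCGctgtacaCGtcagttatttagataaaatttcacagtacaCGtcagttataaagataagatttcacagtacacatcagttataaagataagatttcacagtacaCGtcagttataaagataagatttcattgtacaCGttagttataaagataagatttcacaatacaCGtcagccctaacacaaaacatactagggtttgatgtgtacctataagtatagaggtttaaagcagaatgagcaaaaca

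Among the falls, ROS1 (labelled DML1, AT2G36490; chromosome 2, 15307907 to 15314807, minus strand) had 0.778 and 0.755 CPM in ago4-3 NaCl, against 8.95 and 7.46 CPM in Col-0 NaCl. Both mutant libraries were low and level with each other (−3.42 ± 0.24, adjusted p = 6.98e-07). It was the 1 called gene of 4 measured for DNA demethylation and of 3 measured among genes reported as controlled by DNA methylation. On control medium ago4-3 had 1.42 and 1.36 CPM, against 5.49 and 4.72 CPM in Col-0 (−1.88), and the difference between the media was not called (−1.54, adjusted p = 0.149). In ago4-2 on NaCl it was 5.15 and 5.54 CPM, beside the same Col-0 NaCl libraries. The window holds 11 CG, and 11.6% of windows hold as many or more.
ROS1, chr2:15314808-15315057, minus strand: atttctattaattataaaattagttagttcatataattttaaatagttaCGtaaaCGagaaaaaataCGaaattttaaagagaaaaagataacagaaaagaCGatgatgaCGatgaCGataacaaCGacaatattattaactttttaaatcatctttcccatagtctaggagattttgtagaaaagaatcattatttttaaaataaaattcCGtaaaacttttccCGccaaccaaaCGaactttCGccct

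Other falls that held with every library left out were in genes for enzymes of several kinds. TPX2, a thioredoxin-dependent peroxidase, had 0.583 and 0.137 CPM in ago4-3 NaCl, against 8.26 and 8.70 CPM in Col-0 NaCl (−4.67 ± 0.40, adjusted p = 5.61e-06). GAD2, a glutamate decarboxylase that makes gamma-aminobutyrate, had 1.26 and 1.41 CPM, against 6.24 and 6.95 CPM (−2.29 ± 0.23). The ends of TPX2 and GAD2 overlap by 359 bases on opposite strands, so they may share reads. The peroxidase AT5G39580 was 17.2-fold lower (95% counting interval 5.66 to 85.4), with 0 and 3 counts, against 32 and 40. The chitinase AT2G43590 had 0.875 and 1.51 CPM, against 11.4 and 8.85 CPM (−3.04), and the papain-type protease AT1G29080 fell by 2.86 on the log2 scale. Neither group of libraries overlapped the other in these genes, which was true of all 211 called genes.

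Close to one another on chromosome 1, the polyketide cyclase-like genes AT1G14930, AT1G14940 and AT1G14950 all fell. The call of AT1G14940 did not hold with a library left out, where its log2 fold change lay between −4.15 and −3.57. AT1G14950 had 0.292 and 0.412 CPM in ago4-3 NaCl, against 6.07 and 8.04 CPM in Col-0 NaCl (−4.28). The desiccation-like gene AT1G47980 had 0.194 and 0.549 CPM, against 3.24 and 5.13 CPM (−3.39). EPR1, an extensin-like gene of the endosperm around the emerging root, had 7.39 and 8.61 CPM, against 32.8 and 47.9 CPM (−2.33 ± 0.33, adjusted p = 0.00129). It was the 1 called gene of 4 measured for endosperm and seed coat, with a list median of −0.01, against −0.01 over all genes. Of the 4, 2 had a positive log2 fold change. Summed with EPR1 included, the list came to 156 and 174 CPM in ago4-3 NaCl and 184 and 209 CPM in Col-0 NaCl.

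EPR1 lies 171 kb from AGO4, and the transcription factor gene NTL8, which also fell, lies 138 kb away. AT2G27580, an A20/AN1 zinc-finger gene 234 kb from AGO4 and chosen after its values were seen, had 94.7 and 90.05 CPM in ago4-3 NaCl, against 17.5 and 19.7 CPM in Col-0 NaCl (2.31 ± 0.10). It was also higher in ago4-3 on control medium (1.80), whereas ago4-2 on NaCl, set against the same Col-0 libraries, differed by 0.05. Within 0.25 Mb of AGO4, 3 of 75 measured genes were called (4.0%), and in the bins farther out on chromosome 2 the share was 0.946% to 1.95%. By chromosome, the called share was highest on chromosome 2 at 1.66% and lowest on chromosome 5 at 1.00%. An effect of the mutation cannot be told apart from sequence linked to it at these distances.

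Of the gene lists, 487 members were measured and 34 were called, 13 higher and 21 lower, beside 1.19% of all genes called, 0.541% higher and 0.648% lower. The lists were chosen with earlier results of these data known, so their shares of calls are not independent of those results. The seed storage and oil-body list stood out by its median of 0.63, against −0.01 over all genes. Storage globulins, albumins and oleosins are made during seed filling and their transcripts decline as germination proceeds. Of 19 members, 3 were called, all higher. In 15 both ago4-3 libraries lay above both Col-0 libraries, an order found in 20.33% of all genes. CRA1, a cruciferin, had 1279 and 1188 CPM in ago4-3 NaCl, against 489 and 725 CPM in Col-0 NaCl (1.02 ± 0.20, adjusted p = 0.0220). The cruciferin CRC (labelled CRU3) had 159 and 159 CPM, against 39.6 and 84.2 CPM (1.36), and the oleosin OLEO2 had 208 and 201 CPM, against 108 and 156 CPM (0.63).

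The ago4-3 libraries were close to each other and the Col-0 libraries were not. Summed over the list, storage transcripts came to 2595 and 2453 CPM in ago4-3 NaCl and to 1167 and 1694 CPM in Col-0 NaCl. On control medium the sums overlapped, at 530 and 340 CPM in ago4-3 and 335 and 428 CPM in Col-0, and the list median was 0.34. The 3 calls rested on single libraries. There were 4 without Col-0 NaCl replicate 2 and 0 without any one of the other 3 libraries, while the median stayed between 0.41 and 0.83. In ago4-2 on NaCl, beside the same Col-0 libraries, CRA1 stood at 5789 and 6351 CPM.

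Late embryogenesis abundant (LEA) proteins and dehydrins protect the embryo as it dries. Of 24 members, 3 were higher and 1 lower in ago4-3 on NaCl, beside 0.541% and 0.648% of all genes, and the median was 0.38. DESeq2 called 9 higher and 1 lower, beside 190 higher and 158 lower of 17751 genes. EM6 (labelled GEA6) had 152 and 120 CPM, against 61.0 and 83.3 CPM in Col-0 NaCl (0.92), the LEA gene AT4G36600 had 254 and 248 CPM, against 134 and 161 CPM (0.77), and SAG21 rose by 0.62. The dehydrin ERD14 fell, with 12.5 and 15.6 CPM, against 22.3 and 23.2 CPM (−0.69). On control medium the median was −0.32 and 4 members were lower, beside 0.806% of all genes. As with the storage genes, the calls were few once a library was left out: 0 without Col-0 NaCl replicate 1 or ago4-3 NaCl replicate 1, 2 without Col-0 NaCl replicate 2 and 1 without ago4-3 NaCl replicate 2.

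Of 15 measured flavonoid genes, 4 were higher in ago4-3 on NaCl, beside 0.541% of all genes. LDOX, DFR and GSTF12 (also TT19) encode enzymes and a carrier of late steps towards anthocyanins and proanthocyanidins, and MYB90 (also PAP2) is a transcription factor that turns them on. LDOX had 5.49 and 4.73 CPM in ago4-3 NaCl, against 1.13 and 0.865 CPM in Col-0 NaCl (2.35 ± 0.29, adjusted p = 0.000278). DFR had 1.94 and 2.13 CPM, against 0.578 and 0.403 CPM (2.05). GSTF12 had 2.82 and 3.36 CPM, against 0.982 and 0.807 CPM (1.79), and MYB90 had 9.82 and 10.4 CPM, against 4.68 and 4.496 CPM (1.14). Both mutant libraries were above both wild-type libraries in each of the 4 genes, as in every gene called higher.

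Across the list 12 of 15 members had a positive log2 fold change, beside 47.8% of all genes, with a median of 0.20. At an unadjusted p under 0.05, 7 were higher and 0 lower, beside 2064 of 17751 genes in either direction. DESeq2 called 5 higher and 0 lower, beside 190 higher and 158 lower of 17751 genes. Of the enzymes of earlier steps, CHS (labelled TT4) differed by −0.04, TT5 by −0.09, F3H by 0.20, TT7 by 0.12 and FLS1 by 0.11, and none of these was called. The glycosyltransferase gene UGT75C1 (AT4G14090, 0.56) and the transporter gene TT12 (0.18) were not called either. LDOX stayed called without any one library. The calls of DFR, GSTF12 and MYB90 ended without each of the 4 libraries in turn, leaving 1 call each time. On control medium 5 members were called, all higher, beside 0.851% of all genes. There LDOX was at 3.10, DFR at 3.37, GSTF12 at 2.36 and MYB90 at 1.15.

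**Figure D3:**
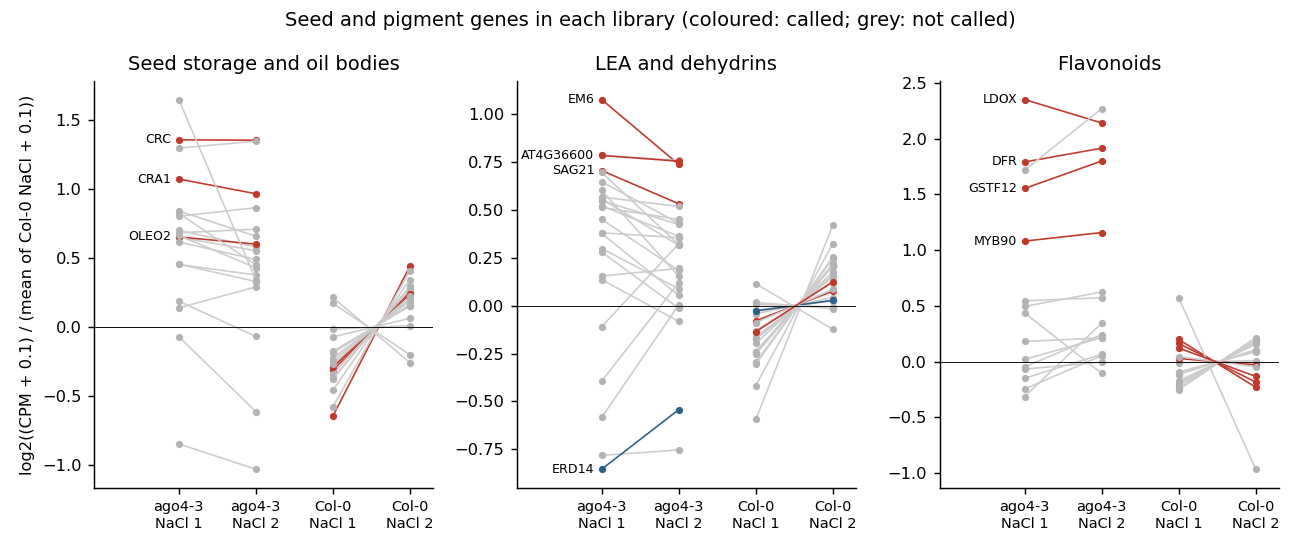
Log2 of each library's CPM over the Col-0 NaCl mean, with 0.1 CPM added to both, for the measured genes of 3 lists (seed storage and oil bodies, LEA and dehydrins, flavonoids) in the 4 NaCl libraries, ago4-3 left of Col-0. Lines join the libraries of a gene, and called genes are coloured. Most storage genes lie above 0 in both ago4-3 libraries and the Col-0 libraries are apart from each other, whereas among the flavonoid genes a group around LDOX, DFR and GSTF12 is raised.

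In the list of mitochondrial and oxidative stress, falls were more frequent than rises. Its members were chosen with earlier results of these data known, so the shares below are not an independent result. Of 34 measured, 6 were lower and 0 higher by edgeR, beside 0.648% and 0.541% of all genes, and the median was −0.19. At an unadjusted p under 0.05 there were 13 lower and 4 higher, beside 2064 of 17751 genes in either direction. DESeq2 called 8 lower and 0 higher, beside 158 lower and 190 higher of 17751 genes. FSD1, the iron superoxide dismutase, had 8.36 and 8.03 CPM in ago4-3 NaCl, against 35.9 and 31.3 CPM in Col-0 NaCl (−2.04 ± 0.15, adjusted p = 1.23e-06). It was lower in control too (−1.13). The alternative oxidase AOX1A had 8.85 and 12.2 CPM, against 18.9 and 18.3 CPM (−0.81), and the glutathione transferase GSTF7 was 27.8-fold lower, with 2 and 3 counts, against 125 and 69. The external NAD(P)H dehydrogenase NDB4 (−2.38) and the AN1 zinc-finger gene PMZ (−2.93) were the others beside AT5G09570. FSD1 and AT5G09570 held with every library left out, and the number of falls was 3 without either Col-0 NaCl library and 2 without ago4-3 NaCl replicate 1. Without Col-0 NaCl replicate 2 there was also 1 rise.

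In each of the hormone and stress lists 1 or 2 members were called, beside 1.19% of all genes, 0.541% higher and 0.648% lower. EDS16, which encodes the isochorismate synthase of salicylic acid synthesis, had 26.5 and 26.0 CPM in ago4-3 NaCl, against 6.27 and 4.96 CPM in Col-0 NaCl (2.22 ± 0.17, adjusted p = 1.90e-06), and was the 1 called gene of 16 for salicylic acid and defence. Of 35 abscisic acid genes, CYP707A2, which breaks the hormone down in imbibed seeds, had 11.1 and 10.7 CPM, against 19.2 and 20.2 CPM (−0.85), and the phosphatase gene HAI3 fell by 1.13 on the log2 scale. Of 23 gibberellin genes, the synthesis gene GA3OX1 fell by 0.72 (6.32 and 6.38 CPM, against 10.02 and 11.0 CPM). Of 25 osmotic and cold stress genes, the zinc-finger gene ZAT12 (labelled RHL41, −1.36) and the lipid transfer gene LTP3 (−0.99) fell. The heat shock genes HSP17.4 (−2.10) and HSP17.6A (−2.52) fell among 17. EDS16 and HSP17.4 held with every library left out. The GA3OX1 call ended without each of the 4 libraries (adjusted p = 0.0695 to 0.162), as did that of ZAT12 (0.0711 to 0.198), and LTP3 held only without Col-0 NaCl replicate 1. CYP707A2 and HAI3 ended without ago4-3 NaCl replicate 2, and HSP17.6A without Col-0 NaCl replicate 2 or ago4-3 NaCl replicate 1.

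Among 27 genes of cell wall loosening, the endosperm expansin EXPA2 had 6.61 and 8.03 CPM in ago4-3 NaCl, against 20.9 and 27.0 CPM in Col-0 NaCl (−1.70 ± 0.17, adjusted p = 3.33e-05). EXPA8 (−0.69) and XTH18 (−1.93) fell and XTH15 rose (0.71). In all, 3 of the 27 were lower and 1 higher, beside 0.648% and 0.541% of all genes. Of the 4 calls, that of EXPA2 alone held with every library left out. Photosystem and antenna genes had a median of −0.18. Of 44, 20 were lower in both mutant libraries than in both wild-type libraries, an order found in 21.19% of all genes. PSBQA alone was called (−0.46), a call that held only without Col-0 NaCl replicate 1. On control medium their median was 0.35 and 6 were called, all higher, beside 0.851% of all genes.

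No gene was called by edgeR in the lists for ion transport (14 genes), dormancy and light control (17), chlorophyll synthesis (17), cell cycle and replication (33), oil mobilisation (21), the clock (21), linker histones (3), FLC and the MAF repressors (7), root and root hair (7) or shoot epidermis and stomata (9). At an unadjusted p under 0.05 the ion transport list had 0 higher and 1 lower, dormancy 1 and 1, chlorophyll 0 and 2, cell cycle 2 and 2, oil mobilisation 3 and 1, the clock 3 and 1, linker histones 1 and 0, FLC and MAF 1 and 3, root 1 and 0, and shoot epidermis 0 and 0. Over all genes, 2064 of 17751 passed that unadjusted threshold in either direction. DESeq2 called 1 dormancy gene and 2 FLC and MAF genes lower, 1 oil mobilisation gene higher, and 0 genes in the other 7 lists. The meristem gene KNAT1 had 12.7 and 13.2 CPM in ago4-3 NaCl and 12.9 and 14.5 CPM in Col-0 NaCl. Of 119 genes of the organelles, 0 were called by edgeR or DESeq2, with 1 higher and 1 lower at an unadjusted p under 0.05, while organelle genes took 0.102% and 0.585% of counts in the ago4-3 NaCl libraries and 0.255% and 0.622% in the Col-0 NaCl libraries.

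**Figure D4:**
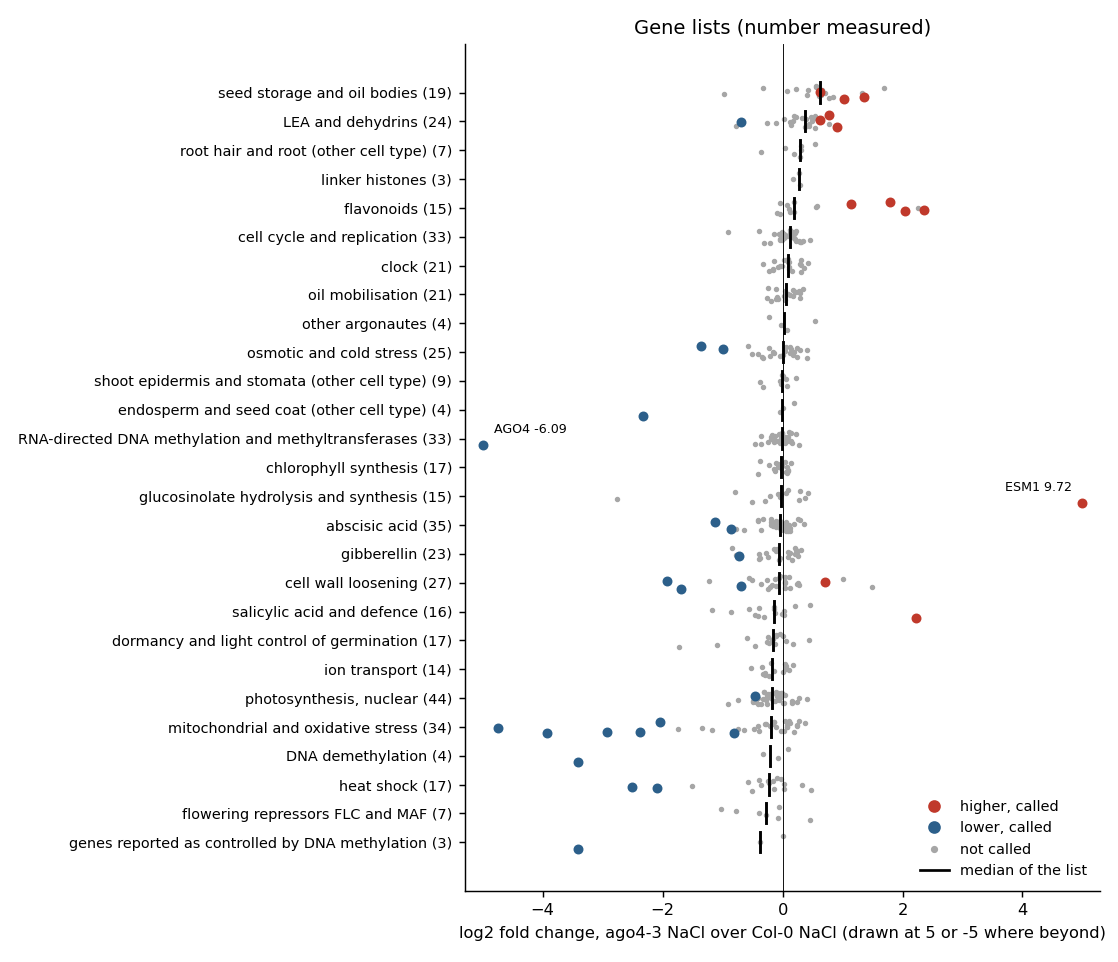
Log2 fold change of ago4-3 NaCl over Col-0 NaCl for each measured member of the gene lists, one row per list, with called members coloured and the median as a bar. Values beyond the axis are drawn at its edge. The storage list lies to the right of 0 with a median of 0.63, and the mitochondrial and oxidative stress list holds 6 called falls.

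The same contrast on control medium uses a separate set of 4 libraries. It called 294 genes (1.66%), 151 higher (0.851%) and 143 lower (0.806%). Of these, 105 were called in the same direction on NaCl, which is 49.8% of the NaCl calls and 35.7% of the control calls. The control count dropped to 98 and 92 when replicate 1 or replicate 2 of Col-0 control was removed and to 99 when replicate 2 of ago4-3 control was removed, and the shared count was at least 64 with any of the 8 libraries left out. By direction, 57.3% of the rises on NaCl and 43.5% of the falls were shared. The share of rises is partly set by the filter of the deposited tables, since genes silent in Col-0 were fitted only where a line other than Col-0 expressed them on control medium. Among genes with at least 1 CPM in both Col-0 control libraries, 26 of 66 rises (39.4%) and 50 of 114 falls (43.9%) were shared. Of the 115 falls on NaCl, 107 had the same sign in control, with a control median of −0.86. The starch-breakdown gene DPE2, chosen after its values were seen, fell by 1.15 on the log2 scale on NaCl and by 1.26 in control.

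**Figure D5:**
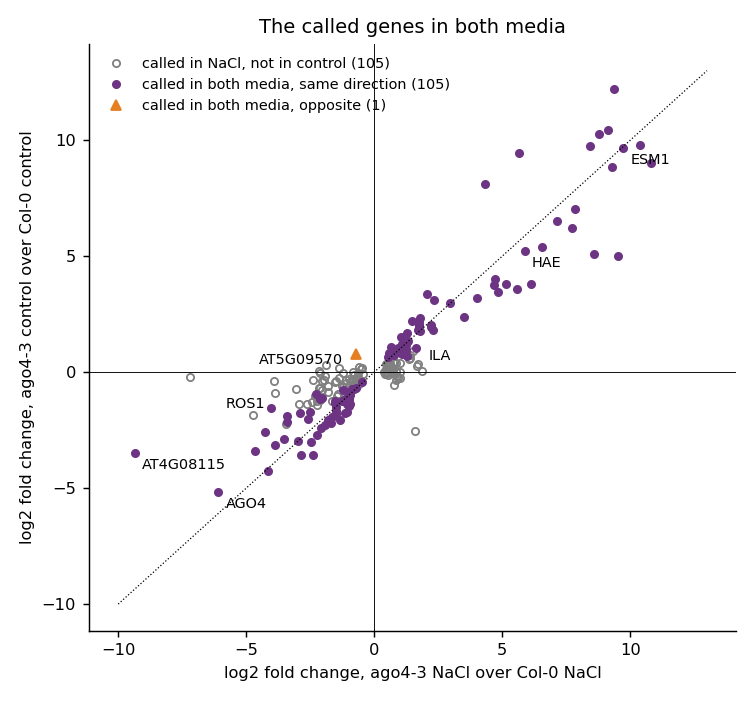
Log2 fold change of ago4-3 over Col-0 on NaCl (x axis) and on control medium (y axis) for the 211 genes called on NaCl. Filled points were also called in control in the same direction (105), open points were not called in control (105), and the triangle is NUDT21. Large rises such as ESM1 and HAE lie near the dotted line of equal change, and AT5G09570 lies near 0 in control.

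A direct test of the difference between the media called 4 genes (0.0225%), 2 in each direction (0.0113% each). In it 981 of 17751 genes had an unadjusted p under 0.05, and DESeq2 called 54. AT5G09570, a Cox19-like CHCH protein and a marker of mitochondrial stress, had 0.583 and 0.343 CPM in ago4-3 NaCl, against 6.32 and 7.35 CPM in Col-0 NaCl (−3.92 ± 0.27). In control the levels were 12.3 and 10.3 CPM in ago4-3 and 15.3 and 13.7 CPM in Col-0 (−0.36), and the difference of the differences was −3.56 ± 0.34 (adjusted p = 0.000516). It was the 1 of the 4 calls that held without any one of the 8 libraries. ILA, the HEAT-repeat protein ILITYHIA of defence and translation control, had 509 and 421 CPM in ago4-3 NaCl, against 163 and 125 CPM in Col-0 NaCl (1.69 ± 0.13), and 202 and 191 CPM in ago4-3 control, against 154 and 152 CPM in Col-0 control. For ILA both mutant libraries were above both wild-type libraries on each medium, by a wider margin on NaCl.

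In the authors' deposited table of the same comparison, 548 genes were called, 163 higher and 385 lower. Of these, 189 were also called here in the same direction, and 17 were not among the genes fitted here. The authors' deposited table gives log2 fold changes of −6.09 for AGO4, 9.71 for ESM1, −3.42 for DML1 and 3.44 for SDC.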

How the data were processed

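Polyadenylated RNA of germinating seeds was sequenced in 12 libraries, 2 for each of 3 lines on 2 media, grouped by their titles. Per the file headers, each of the 9 tables the authors deposited holds raw counts for 4 libraries, which are whole numbers and were used here, and beside them the authors' own log2 ratio, p-value and false discovery rate per gene, quoted only in sentences that credit that table. The 36 pseudo-count columns were not used. Per the submitters' processing notes, the build was TAIR10 and the tools included DESeq, edgeR, Picard and SAMtools. Their roles and versions, the aligner and strand use are not given in the sources used here. Genomic positions and sequences come from the RefSeq genome TAIR10.1, in which 17560 genes were matched.

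The 9 tables together held 18689 identifiers. Of these, 147 with a transcript suffix and 791 genes without counts in all 12 libraries were left out, so that 17751 genes remained, and edgeR's filter removed 0. This comparison's table held 17826 genes, and the 229 of them missing elsewhere were fitted on the 4 libraries alone. Library totals were 18168653 to 47517007 counts. Of counts from 1 to 20, 72.3% to 87.7% were even.

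Counts were scaled by TMM and fitted in R 4.3.3 with the quasi-likelihood test of edgeR 4.0.16, with the 6 groups as the only terms. Two-sided p-values over all genes were given Benjamini-Hochberg adjustment, and genes were called at an adjusted p under 0.05. The standard error is the fold change divided by the root of the F statistic. DESeq2 1.42.0, other scalings, filters, thresholds, a replicate block and leaving out each library were the alternatives. On simulated counts shaped like this comparison, edgeR found 81% of 100 planted 2-fold changes and 99% of 100 planted 4-fold changes, with 11 false calls among 17551 genes. The counts were drawn with the spread that edgeR had estimated. Changes were planted only in genes above a minimum mean count, so the shares found do not cover genes close to silent in both lines. Copies were searched with blastn 2.17.0, at an identity of at least 90%.

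The comparison, the gene lists and the members described were chosen with earlier results of these data known. The rule for named genes took AGO4, the 12 largest changes per direction with at least 1 CPM in the higher group, separate groups and a call that held with each library left out, genes under 0.2 CPM in one line and at least 1 CPM in the other, up to 5 called members of each list, 8 per direction shared with control, and the genes called between media. HAE, AT2G27580, NTL8, SDC, PUP1, AT1G36675, DPE2, AT3G28310, AT1G14930 and the copies of AT1G24851 fall outside it and were chosen after their values were seen.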

Additional observations from a re-analysis of the deposited data

Results flagged for a closer look

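In 4 genes the difference between ago4-3 and Col-0 on NaCl departed from that on control medium by a test of the difference itself. AT5G09570, with a difference of the log2 fold changes (NaCl minus control) of −3.56, and ILA, with 1.33, are described above with their levels. The AT5G09570 call held without any one of the 8 libraries, with a highest adjusted p of 0.0162, and the ILA call held in 4 of 8 cases (highest adjusted p = 0.0990).

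M17, which encodes a late embryogenesis abundant protein, had 27.5 and 27.0 CPM in ago4-3 NaCl, against 15.8 and 26.5 CPM in Col-0 NaCl (0.37, adjusted p = 0.576). On control medium it had 5.28 and 2.31 CPM in ago4-3, against 24.3 and 22.9 CPM in Col-0 (−2.57), and the difference of the differences was 2.94 ± 0.38 (adjusted p = 0.0104). The call was lost in 4 of 8 cases with a library left out. NUDT21, a nudix hydrolase, had 5.54 and 5.73 CPM in ago4-3 NaCl, against 9.47 and 9.05 CPM in Col-0 NaCl, and 9.14 and 9.55 CPM in ago4-3 control, against 5.55 and 5.22 CPM in Col-0 control. It was lower in the mutant on NaCl and higher on control medium, with a difference of −1.51 ± 0.23 (adjusted p = 0.0395). This call held in 1 of 8 cases with a library left out, and with a replicate block the adjusted p was 0.0871.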

How the results depend on the processing

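No named result changed sign under any alternative run, and AGO4 stayed called, between −6.28 and −5.87. DESeq2 called 348 genes on NaCl, 465 on control medium, 54 between the media and 52 list members, against 211, 294, 4 and 34 by edgeR, and 209 of the 211 NaCl calls were among its calls. On NaCl 109 genes passed an adjusted p under 0.01 and 137 a log2 fold change of at least 1 in size. Fitted on its own groups, NaCl gave 236 calls, among them 177 of the 211. Control medium fitted in that way gave 586 calls and the difference between media 9. With organelle genes left out the difference between media gave 21. Leaving out one library gave 87 to 149 calls on NaCl, 92 to 306 on control medium, 1 to 19 between media, 64 to 84 shared between media and 13 to 22 in lists; between media it was 1 without either Col-0 control library or ago4-3 NaCl replicate 1, 12 without Col-0 NaCl replicate 2 and 19 without ago4-3 control replicate 1. The cause of these shifts was not tested. For the 63 other named genes, 648 results under an alternative were unchanged in call and direction and 107 kept their direction but were no longer called. With the replicate number as a block, calls were 187 on NaCl, 235 on control medium, 3 between media, 91 shared and 33 in lists; the numbers are not said to mark pairs, and deviations of same-numbered NaCl libraries correlated at 0.09. The 2 libraries per group limit what small changes could be called, and at low depth a count of 0 allows up to 3 counts.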
